A study of Saccharomyces cerevisiae with 25 samples.

Results

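Glycogen synthesis and breakdown was followed through 10 genes of Saccharomyces cerevisiae, taken by name as the initiators GLG1 and GLG2, the synthases GSY1 and GSY2, the branching enzyme GLC3, the phosphatase subunit GAC1, the precursor enzymes PGM2 and UGP1, and the breakdown enzymes GPH1 and GDB1, out of 6650 named genes in the deposited table. RNA sequencing gave 25 libraries from 1 time course, 24 taken every 15 min until 360 min after transfer to medium lacking phosphate and 1 at 0 min from high phosphate medium. By time after transfer the libraries fell into 3 windows, called late from 255 to 360 min, middle from 135 to 240 min and early from 15 to 120 min. All cells, those at 0 min included, derived from BY4741, a laboratory haploid (mating type a) with deletions of LEU2, HIS3, URA3 and MET17. They carried pho84pr-YFP, in which the promoter of PHO84 drives a fluorescent reporter, and PHO85 as a DAmP allele. DAmP, decreased abundance by mRNA perturbation, disrupts the region behind a stop codon and so lowers the amount of the messenger RNA. No strain with intact PHO85 and no transfer to high phosphate medium was analysed here, so loss of phosphate cannot be told apart from handling and change of medium.

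Glycogen is a branched store of glucose that yeast builds when growth slows. Glucose 6-phosphate is turned into glucose 1-phosphate and then UDP-glucose, glycogenin primes the chain, glycogen synthase lengthens it and the branching enzyme adds side chains, while phosphorylase and debranching enzyme take it apart. Pho85, the kinase best known for signalling phosphate supply, also phosphorylates and inhibits glycogen synthase together with the cyclins Pcl8 and Pcl10, and many of these genes are known targets of the stress factors Msn2 and Msn4. Messenger levels do not give enzyme activity or the amount of glycogen.

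The promoters of 4 genes whose messengers moved together are shown because 3 of them hold a pair of stress response elements, the letters AGGGG on either strand that Msn2 and Msn4 are known to bind, and the fourth, GPH1, holds none. Each is the 300 bases before the start codon in the genome build R64, read 5′ to 3′ on the strand of the gene, and capitals mark the element.
GLC3, chrV:132820-133119, plus strand: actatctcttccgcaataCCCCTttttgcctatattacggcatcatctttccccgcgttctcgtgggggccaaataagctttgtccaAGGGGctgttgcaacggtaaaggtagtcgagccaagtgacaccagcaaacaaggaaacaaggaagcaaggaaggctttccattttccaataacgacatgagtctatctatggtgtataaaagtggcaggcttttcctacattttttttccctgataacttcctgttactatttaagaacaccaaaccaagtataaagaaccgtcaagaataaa
PGM2, chrXIII:477607-477906, minus strand: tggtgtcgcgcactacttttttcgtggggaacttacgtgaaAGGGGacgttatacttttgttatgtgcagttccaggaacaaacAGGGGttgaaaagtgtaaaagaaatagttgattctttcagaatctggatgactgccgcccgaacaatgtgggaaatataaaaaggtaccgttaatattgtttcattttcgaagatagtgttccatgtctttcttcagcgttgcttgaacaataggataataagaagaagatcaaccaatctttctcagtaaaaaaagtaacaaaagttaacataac
UGP1, chrXI:369591-369890, plus strand: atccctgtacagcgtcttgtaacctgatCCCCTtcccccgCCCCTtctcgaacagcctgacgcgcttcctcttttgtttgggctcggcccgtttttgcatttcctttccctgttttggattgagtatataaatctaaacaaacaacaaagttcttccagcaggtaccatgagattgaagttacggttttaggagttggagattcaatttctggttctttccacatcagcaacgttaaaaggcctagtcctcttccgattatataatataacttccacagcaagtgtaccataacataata
GPH1, chrXVI:861006-861305, plus strand: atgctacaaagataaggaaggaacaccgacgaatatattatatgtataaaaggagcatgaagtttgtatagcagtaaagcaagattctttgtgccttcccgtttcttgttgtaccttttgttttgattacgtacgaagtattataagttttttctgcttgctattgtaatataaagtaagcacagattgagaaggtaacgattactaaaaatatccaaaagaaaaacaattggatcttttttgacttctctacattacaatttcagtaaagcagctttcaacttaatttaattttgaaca
Of the 10 glycogen genes, 6 held the element in this window, namely GLC3, PGM2 and UGP1 with 2 matches each and GSY2, GDB1 and GLG2 with 1 each. Over 6001 promoters of protein-coding genes, 22.2% held at least 1 match and 3.45% at least 2. The core AGGGAT of the post-diauxic shift element, searched on both strands, was found in the windows of GLG1 and UGP1 and in 9.23% of all promoters. The Pho4 core CACGTG, a palindrome, was found in none of the 10 windows and in 3.57% of all promoters. A match is a description of the letters and not a bound site, and no match says nothing of sequence farther upstream.

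Depth set what could be seen. The unit is RPM, the reads of a gene in every 1000000 reads of listed genes in that library, and a gene with fewer than 10 reads in a library has no value there. Of the 25 libraries, 20 held 169769 to 4954493 listed reads and were used for all tests. The other 5, at 45, 75, 90, 210 and 330 min, held 766.5 to 81208 and were left out, because scaling to a few listed genes lifts all of their values: the genes they list hold only 13.0% to 84.1% of the reads at 0 min, against at least 91.9% for the genes listed by any library used. The windows used then held 7 late, 7 middle and 5 early libraries, with median depths of 501934, 977433 and 1056894 listed reads. Each time point is 1 library of 1 culture series, so no p-value measures the spread between repeated cultures. The limma comparisons of windows use 1 spread per gene, pooled within the windows, which includes any change with time inside a window. For PGM2, for example, the SD in log2 RPM was 1.75 in the middle window, 0.33 early and 0.79 late. The permutation tests treat libraries as interchangeable between windows, although they are ordered in time. PHO85 was listed in 4 libraries, at 5.65 RPM at 0 min, 5.05 RPM at 105 min, 6.46 RPM at 165 min and 21.3 RPM at 240 min. The 4 deleted genes were never listed, and all 6 markers of mating type a were listed in 18 to 24 libraries. With unlisted genes entered as 0, 4 markers of mating type alpha summed to 0 to 109 RPM in the libraries used. The markers of mating type a summed to 2364 to 5074 RPM. A sum with unlisted genes is thus a lower bound. Of 5 meiosis genes IME1 was never listed, and NDT80 was the only one listed in the late window, at 69.6 to 113 RPM, against 29.8 to 42.9 RPM in the 4 early libraries that list it. With unlisted genes again entered as 0, the summed level of the 5 was thus that of NDT80 late and 0 to 59.6 RPM early. The part of this level in the results below was not tested.

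All 6 glycogen genes with enough values to test were higher in the late than in the early window, by 2.79-fold to 10.5-fold. PGM2, GLC3 and GPH1 changed most, GDB1 came next, and UGP1 and GSY2 changed least. The test was limma on log2 RPM with Benjamini-Hochberg adjustment over 4745 genes and a threshold of 0.05, which called 35.0% of all tested genes higher and 6.95% lower. A call alone therefore sets no gene apart, and the sizes are the more telling measure: the median log2 change was 2.88 over the 6 genes and 0.41 over all tested genes. Of all 4745 changes, ranked with the largest rise first, PGM2 was at 24, GLC3 at 26, GPH1 at 28, GDB1 at 59, UGP1 at 178 and GSY2 at 287. The median of all genes moved with the scaling. The 1661 higher and 330 lower calls became 730 and 674 with libraries centred on their medians, and 649 and 740 when ribosomal protein genes were kept out of the scaling, while all 6 glycogen genes stayed called higher under both. The remaining 4 had too few values, and how GSY1, GLG1, GLG2 and GAC1 stood is described with their roles.

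**Figure D1:**
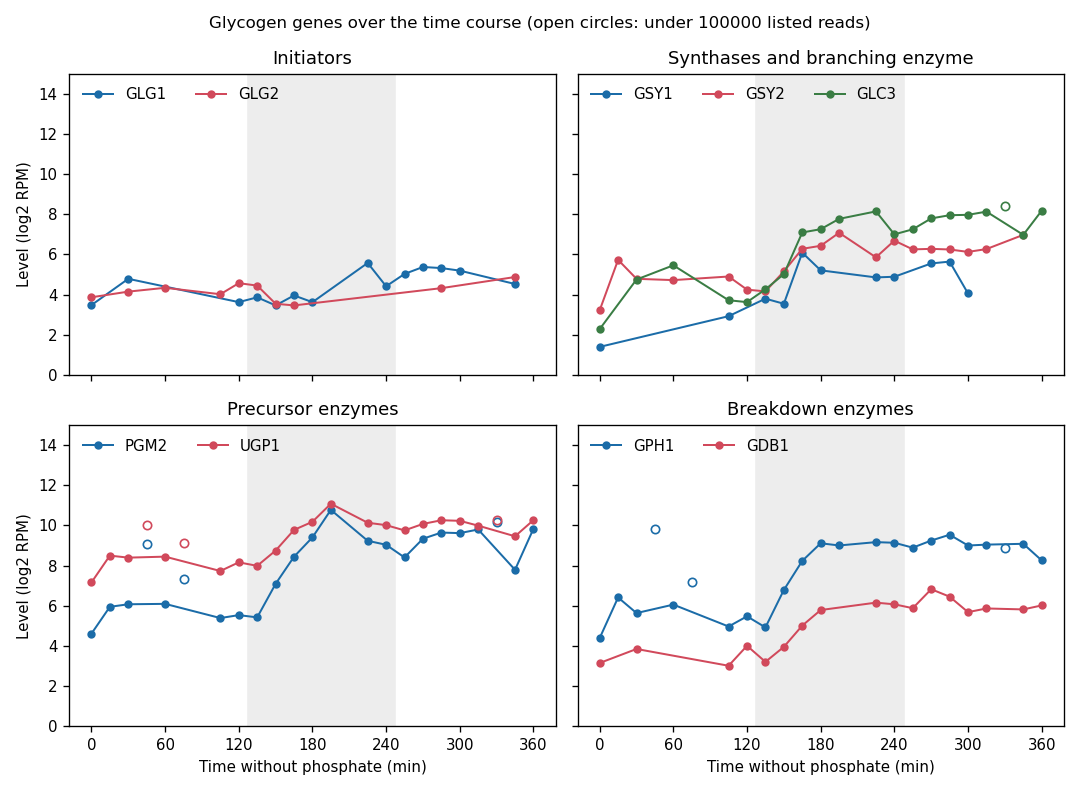
Level in log2 RPM (vertical) against minutes without phosphate (horizontal) for 9 glycogen genes, GAC1 having no value. Filled circles joined by lines are the 20 libraries used, lines bridge libraries without a value, open circles are libraries under 100000 listed reads, and the grey band is the middle window. GSY2, GLC3, PGM2, UGP1, GPH1 and GDB1 step up together between 135 and 180 min, and GLG2 does not.

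PGM2 and UGP1 supply the glucose donor. PGM2 (XIII, 475897 to 477606), the major phosphoglucomutase, averaged 9.20 ± 0.79 log2 RPM in the late window (SD, n = 7) and 5.81 ± 0.33 in the early window (SD, n = 5). Its lowest, median and highest levels were 222, 786 and 913 RPM late and 41.9, 61.7 and 68.4 RPM early. The windows did not overlap, and the 0 min library, at 24.4 RPM, was below every later library used. The change was 10.5-fold (log2 change 3.40, SE 0.67; limma, adjusted p = 6.50e-04). UGP1 (XI, 369891 to 371390), UDP-glucose pyrophosphorylase, makes UDP-glucose for glycogen, trehalose and cell wall glucan alike. It had the highest level of the 10 genes throughout, with 704, 1079 and 1231 RPM as lowest, median and highest late values, 212, 337 and 361 RPM early, and 143 RPM at 0 min. Again no late library reached down to the early ones, and the change was 3.38-fold (log2 change 1.76, SE 0.37; limma, adjusted p = 8.00e-04). Both genes peaked at 195 min, PGM2 at 1752 RPM (exact Clopper-Pearson 95% interval 1570 to 1949) and UGP1 at 2166 RPM (1964 to 2384), in a library of 192943 listed reads. Such intervals cover counting error only. Both were lowest of the late window at 345 min, as was GLC3.

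The paralog PGM1 (XI, 203541 to 205253), the minor phosphoglucomutase, offers a comparison within each library in which scaling cancels. PGM1 had 36.9 to 65.7 RPM in the late window (n = 6) and 38.2 to 87.3 RPM in the early window (n = 5), ranges that overlap, and 76.5 RPM at 0 min. Its log2 change was -0.12 (SE 0.23; limma, adjusted p = 0.683), turning to -0.50 with median centring. The ratio of PGM2 to PGM1, per length of coding sequence, was on average 10.7 late and 1.00 early and stood at 0.32 at 0 min. PGM1 was thus the more abundant of the pair at 0 min. The ratio was above 1 at 15, 30 and 60 min, at 1.62, 1.45 and 1.03. It was below 1 again at 105, 120 and 135 min, at 0.48, 0.86 and 0.66. From 150 min on PGM2 was the more abundant in each of the 12 libraries that list both. The log2 ratio was higher late by 3.41 (3.41 ± 0.84, n = 6, against -0.00 ± 0.70, n = 5, SD), with no overlap (exact two-sided permutation test, p = 0.0022, the smallest these libraries can give; adjusted over 5 ratios 0.0054). No window of 40 bases of either gene occurs elsewhere in R64, so reads of at least that length would not be shared between the paralogs without mismatches; the read length is not given in the sources used here. The same held for all 10 glycogen genes, and none of them overlaps another annotated gene.

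**Figure D2:**
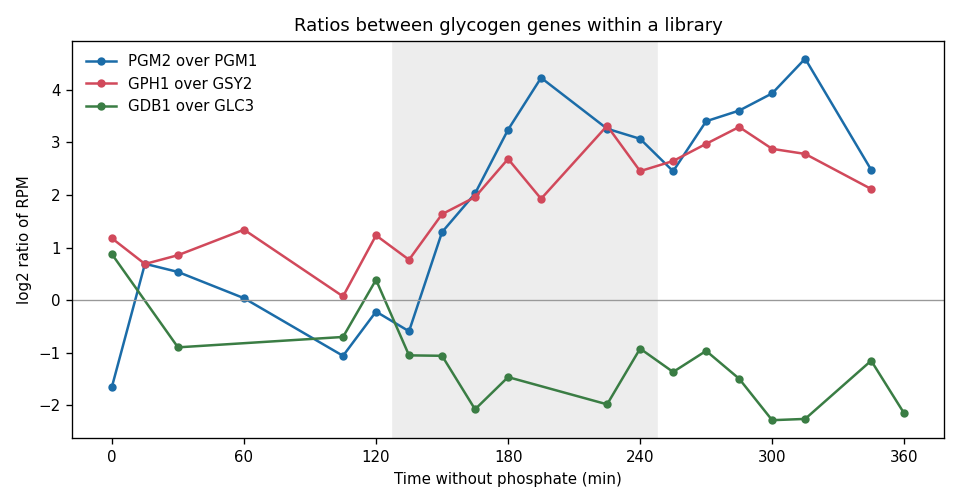
Within-library log2 ratios of RPM (vertical) against minutes without phosphate (horizontal) for 3 gene pairs in the libraries used that list both genes; the grey band is the middle window and the line at 0 marks equal RPM. PGM2 over PGM1 and GPH1 over GSY2 climb between 135 and 180 min and stay high, and GDB1 over GLC3 lies below 0 in all but 2 libraries.

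Initiation gave few values. GLG1 (XI, 552770 to 554620) and GLG2 (X, 154985 to 156127) encode glycogenin, which attaches the first glucose units to itself. GLG1 was listed in 5 of 7 late libraries at 23.0 to 41.4 RPM, in 2 of 5 early libraries at 12.3 and 27.5 RPM, and at 11.1 RPM at 0 min. GLG2 was listed in 2 of 7 late libraries at 19.9 and 29.3 RPM, in 4 of 5 early libraries at 16.2 to 23.7 RPM, and at 14.5 RPM at 0 min. For both genes the late and early values overlap. The 5 late libraries without a GLG2 value put it below limits of 15.5 to 58.9 RPM, of which 15.5 RPM at 255 min lay below all 4 early values, 16.6 and 18.0 RPM lay among them, and 30.7 and 58.9 RPM lay above them. With the requirement lowered to 2 libraries a window, the log2 change late minus early was 0.88 for GLG1 (SE 0.48; limma, adjusted p = 0.144) and 0.33 for GLG2 (SE 0.41; limma, adjusted p = 0.538). Under the same requirement the spline of time over the whole course called GLG1 (limma F test, adjusted p = 0.0195) and not GLG2 (adjusted p = 0.147). It called 2371 of all 4985 genes tested, so the call alone does not set GLG1 apart. The log2 ratio of GLG2 to GLG1 differed by -0.48 between 2 late and 2 early libraries (exact two-sided permutation test, p = 0.667, smallest possible 0.333; adjusted 0.75), a difference that these libraries cannot resolve.

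Chain growth is the work of GSY1 and GSY2, of which GSY2 is the main synthase and the one inhibited through Pho85. GSY2 (XII, 660716 to 662833) was listed in 6 of 7 late libraries, at 75.9, 77.3, 75.7, 69.6, 76.8 and 125 RPM from 255 to 345 min, and in all 5 early ones, at 52.9, 27.5, 26.3, 29.8 and 18.9 RPM. At 0 min it had 9.28 RPM. Every listed late value lay above every early value, and at 360 min it was unlisted and so below 58.9 RPM. The change was 2.79-fold (log2 change 1.48, SE 0.38; limma, adjusted p = 0.00387). GSY1 (VI, 174265 to 176391), the minor isoform, was listed at 2.62 RPM at 0 min (13 reads, exact Clopper-Pearson 95% interval 1.40 to 4.49) and at 7.57 RPM at 105 min, its sole early value; at 30 and 120 min it was below 6.55 and 9.46 RPM. It reached 67.8 RPM at 165 min (105 reads, 55.4 to 82.1), had 28.9 and 29.5 RPM at 225 and 240 min, and was listed in 3 of 7 late libraries, at 46.8, 49.8 and 16.6 RPM at 270, 285 and 300 min. The other 4 late libraries put it below 15.5 RPM at 255 min, 20.9 RPM at 345 min, 30.7 RPM at 315 min and 58.9 RPM at 360 min, so its late level was not uniformly high. All 9 listed values from 135 min on were at least 11.6 RPM, more than 4-fold above 0 min. At 225, 240, 270, 285 and 300 min, however, the lowest listed values of the libraries were 11.8 to 19.9 RPM. Any value listed there was bound to be more than 4-fold above 0 min, so the count of 9 partly reflects depth. From 135 to 180 min the lowest listed values were 6.46 to 10.2 RPM, which left room for lower values of GSY1. Too few early libraries list GSY1 for the test. With each unlisted value set to the lowest listed value of its library, its log2 change was 1.34 (SE 0.46; limma, adjusted p = 0.0228), and GLG1 had 1.23 (SE 0.43; limma, adjusted p = 0.0246). GSY1 was listed in 1 of 5 early and 3 of 7 late libraries and GLG1 in 2 of 5 and 5 of 7, and the rest was filled. The lowest listed values themselves were 15.5 to 58.9 RPM late and 5.05 to 29.4 RPM early. Filling alone thus gives a gene a higher mean late, so neither change can be read as a rise of the gene. How much of each change is filling was not tested. Per length, GSY2 was 3.55 times GSY1 at 0 min and 1.15 to 4.22 times GSY1 in the 10 later libraries that list both. The log2 ratio late minus early was -0.84 with 3 late libraries and 1 early library (exact two-sided permutation test, p = 0.75, smallest possible 0.25; adjusted 0.75).

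Branching depends on GLC3 alone. GLC3 (V, 133120 to 135234) was at 152, 221, 247, 250, 279, 125 and 289 RPM in the 7 late libraries in time order, at 26.8, 43.8, 13.1 and 12.3 RPM in the 4 early libraries that list it, and at 4.84 RPM at 0 min (24 reads, exact Clopper-Pearson 95% interval 3.10 to 7.21). The late libraries were all above the early ones by a wide margin. The change was 10.3-fold (log2 change 3.36, SE 0.62; limma, adjusted p = 4.41e-04). Against 0 min GLC3 had the largest change of the glycogen genes, 44.3-fold in the late window (log2 change 5.47, SE 1.07; limma, adjusted p = 0.00258), at 7 among all 4745 changes. GAC1 (XV, 667860 to 670241), which brings the phosphatase Glc7 to glycogen synthase and thereby activates it, had no value in any of the 25 libraries. The table does not show whether it had fewer than 10 reads throughout or has no value for another reason, so no limit on its level is given.

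Breakdown genes moved with the synthesis genes. GPH1 (XVI, 861306 to 864014), glycogen phosphorylase, had 306, 528 and 743 RPM as lowest, median and highest late values, 31.3, 49.8 and 85.2 RPM early, and 21.0 RPM at 0 min. The windows lay far apart, with a change of 9.85-fold (log2 change 3.30, SE 0.60; limma, adjusted p = 3.32e-04). GDB1 (XVI, 902044 to 906654), the debranching enzyme, had 58.9, 113, 87.7, 51.4, 58.3, 56.4 and 64.8 RPM in the late libraries, 14.4, 8.08 and 16.1 RPM in the 3 early libraries that list it, and 8.88 RPM at 0 min. Late and early values again did not overlap, and the change was 5.48-fold (log2 change 2.45, SE 0.51; limma, adjusted p = 8.01e-04).

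The phosphorylase gene and the main synthase gene did not change by the same amount. The log2 ratio of GPH1 to GSY2 was 2.78 ± 0.39 late (SD, n = 6) and 0.84 ± 0.50 early (SD, n = 5), a difference of 1.94 with no overlap (exact two-sided permutation test, p = 0.0022, the smallest possible here; adjusted 0.0054). Per length, GPH1 was 5.38 times GSY2 late, 1.40 times early and 1.77 times at 0 min. For debranching and branching, the log2 ratio of GDB1 to GLC3 in the libraries that list both was -1.67 ± 0.56 late (SD, n = 7) and -0.40 ± 0.69 early (SD, n = 3), a difference of -1.26 (exact two-sided permutation test, p = 0.0167; adjusted 0.0278). Those 3 early libraries are the ones in which GDB1 was high enough to be listed. At 60 min GLC3 had 43.8 RPM and GDB1 was unlisted, which puts the log2 ratio below -1.32, lower than the late values of -0.97 at 270 min and -1.15 at 345 min, so the windows overlap. With that library entered at its limit the difference was -1.03 (exact two-sided permutation test, adjusted p = 0.0404, with 4 early libraries), and any lower true ratio there would make it smaller. Without the library at 120 min it was -0.87 (exact two-sided permutation test, adjusted p = 0.185, with 2 early libraries), so a change of this ratio is not established. For GPH1 over GSY2, the late library at 360 min lists GPH1 alone, which puts its log2 ratio above 2.38 and beyond every early value.

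**Figure D3:**
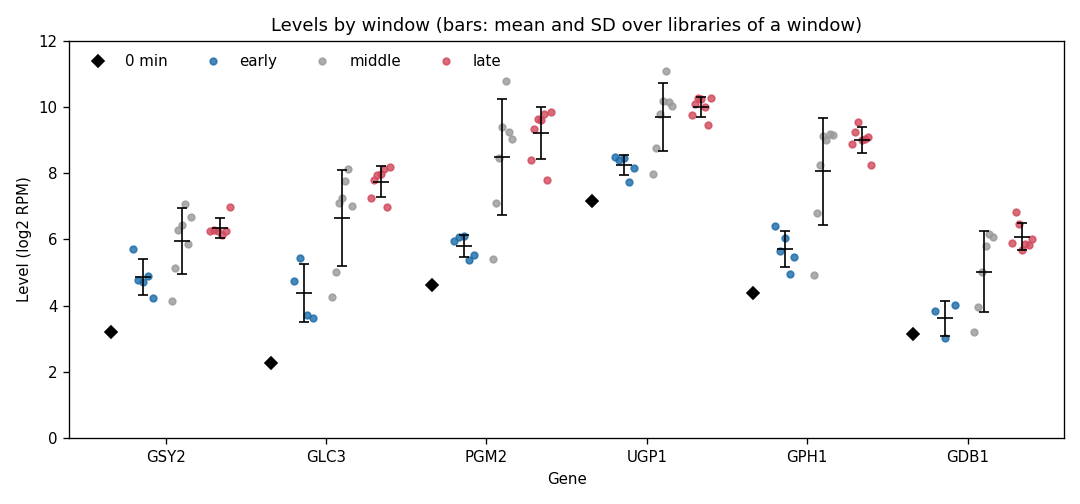
Levels in log2 RPM (vertical) of the 6 tested glycogen genes (horizontal) at 0 min (diamond, 1 library) and in the early, middle and late windows (circles, 1 per library used that lists the gene); bars are the mean and SD over those libraries. Late circles lie above all early circles for each of the 6 genes, and the middle window spans both levels.

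For the 6 tested genes most of the rise from 135 min to the late window had come by 180 min, here called the step. A spline of time (limma F test, adjusted over all genes) called all 6 genes, with adjusted p between 3.04e-11 for GPH1 and 4.44e-05 for PGM2, where 48.9% of all tested genes were called. At 135, 150, 165 and 180 min PGM2 had 42.9, 136, 348 and 678 RPM, GPH1 had 30.3, 110, 301 and 553 RPM, and GLC3 had 19.1, 32.3, 136 and 152 RPM. UGP1 had 254, 430, 878 and 1162 RPM, GSY2 had 17.8, 35.5, 77.5 and 85.9 RPM, and GDB1 had 9.23, 15.5, 32.3 and 55.2 RPM at the same times. After 135 min, all 6 genes first passed the midpoint between their mean at 105 to 135 min and their late mean in the library at 165 min, and stayed above it in every later library that lists them. GSY2 had also stood above its midpoint once before, at 15 min. By 180 min GSY2, PGM2, UGP1 and GPH1 had covered 103% to 109% of the log2 distance between 135 min and their late mean, GDB1 89.9% and GLC3 85.8%. GLG1 stood above its midpoint at 30 min, had 12.3 RPM at 180 min and next passed the midpoint at 225 min. For comparison PHO84, the phosphate transporter gene of the Pho4 pathway, already had 561 RPM at 15 min against 69.6 RPM at 0 min. The midpoint and the times compared were chosen with the values known, so these are descriptions with no test.

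Before the step there was a smaller rise and dip. At 15, 30 and 60 min every listed value of a glycogen gene was above its 0 min level, but lower values often could not be listed. The lowest listed value at 15 min was 29.4 RPM, above the 0 min level of every glycogen gene with one but UGP1. At 60 min it was 17.5 RPM, above all but UGP1, PGM2 and GPH1, and at 30 min 6.55 RPM, above GLC3 and GSY1. From 105 to 135 min the listed values of PGM2, UGP1, GPH1 and GLC3 were lower again. PGM2 had 41.9, 46.4 and 42.9 RPM at 105, 120 and 135 min and 61.7, 67.4 and 68.4 RPM at 15, 30 and 60 min. GPH1 had 31.3, 44.5 and 30.3 RPM at the later and 85.2, 49.8 and 66.6 RPM at the earlier times, and UGP1 had 212, 287 and 254 RPM against 361, 337 and 349 RPM. The 2 sets of libraries did not overlap for these 3 genes. Listed values also lay apart for GLC3, with 13.1, 12.3 and 19.1 RPM against 26.8 and 43.8 RPM, and for GLG1, with 12.3 and 14.5 RPM against 27.5 RPM. At 15 min, however, GLC3 and GLG1 were unlisted and so below 29.4 RPM, and at 60 min GLG1 was below 17.5 RPM. These limits allow values as low as the later ones, so for GLC3 and GLG1 a lack of overlap is not established. Listed values of the 2 sets overlapped for GSY2, GDB1 and GLG2. Among trehalose and sugar kinase genes, NTH1, NTH2, GLK1 and EMI2 were also lower at 105 to 135 min without overlap. Their mean log2 differences were -0.70, -0.34, -0.75 and -0.93, beside -0.59 for PGM2, -0.49 for UGP1 and -0.91 for GPH1. Listed values of TSL1 lay apart too, with 2 values from 15 to 60 min. For TPS1, TPS2, TPS3, ATH1, HXK1 and HXK2 the sets overlapped. The libraries at 15 and 60 min were shallower than those at 105 to 135 min, with 340264 and 570427 listed reads against at least 1056894, and the part of depth was not tested; at 30 min the depth was 1527591. The pattern was picked after the values were seen and carries no test. For the early window against 0 min limma called 0 of the 6 genes, with log2 changes between 0.47 for GDB1 and 2.11 for GLC3 and adjusted p = 1.00 for each. GSY2, at a log2 change of 1.66, was the 1 of them with an unadjusted p under 0.05. Over all genes 10 were called higher, 0.211%, and 147 had an unadjusted p under 0.05, with the single 0 min library assumed to vary like the others.

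Against 0 min the late window was higher for all 6 tested genes, where 18.7% of all tested genes were called higher and 5.27% lower. GPH1 was 24.6-fold, PGM2 24.2-fold, GSY2 8.80-fold, GDB1 7.61-fold and UGP1 7.18-fold above 0 min, beside GLC3 given above (limma, adjusted p between 0.00258 and 0.0132). These changes share the late libraries with the late minus early changes and are no separate evidence. The split of 886 higher and 250 lower calls over all genes became 407 and 439 with median centring, and 433 and 368 with ribosomal protein genes out of the scaling, with all 6 glycogen genes called higher both times. In the middle window, which holds the step, 4 of the 6 were higher than in the early window, PGM2 at a log2 change of 2.68, GPH1 at 2.34, GLC3 at 2.26 and UGP1 at 1.46 (limma, adjusted p between 0.0246 and 0.0368), where 8.24% of all genes were called higher and 2.13% lower. GSY2 had 1.07 and GDB1 1.41 (limma, adjusted p = 0.0598 and 0.0766). These middle calls were fragile: 0 of the tested glycogen genes were called without the library at 105, 120, 180 or 240 min, 1 without 225 min and 2 without 30 or 195 min, while all 6 were called without 135 or 150 min. Over all genes the middle window had 391 higher and 101 lower calls, and 129 and 91 with median centring. The higher calls over all genes moved with the same omissions. They became 108, 109, 158 and 121 without 105, 120, 180 and 240 min, of 4459, 4490, 4745 and 4745 tested. Without 225, 30 and 195 min there were 136, 151 and 178, of 4744, 4462 and 4745. Without 135 and 150 min there were 881 and 686, of 4743 and 4742.

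The order of abundance was also rearranged. Per kilobase of coding sequence, the median levels over the 7 late libraries were 719 RPM for UGP1, 459 for PGM2, 195 for GPH1, 117 for GLC3 and 12.8 for GDB1. Where late libraries do not list a gene, entering each at its limit holds the median to at most 35.9 RPM per kilobase for GSY2 (6 of 7 listed), 19.7 for GLG1 (5 of 7), 17.4 for GLG2 (2 of 7) and 14.4 for GSY1 (3 of 7). The ranges over late libraries overlapped between UGP1 and PGM2, PGM2 and GPH1, and GPH1 and GLC3, and the listed values overlapped among GSY1, GLG2, GLG1 and GDB1, so these neighbours are not separated. GLC3 and GSY2 met at 345 min, where each had 60 reads and 125 RPM, and GLC3 was the higher in the other 5 late libraries that list both. At 0 min the same measure was 95.4 RPM for UGP1, 14.3 for PGM2, 12.7 for GLG2, 7.75 for GPH1, 6.0 for GLG1, 4.38 for GSY2, 2.29 for GLC3, 1.93 for GDB1 and 1.23 for GSY1. The initiators GLG2 and GLG1 thus stood near the middle or above it at 0 min and among the 4 lowest late. GLC3 was below GSY2 at 0 min.

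Regulators and side branches of glycogen metabolism that could be tested moved less at the median. Of 18 other genes of the pathway 13 could be tested, and 6 were higher and 0 lower in the late than in the early window, beside 35.0% of all tested genes higher. Their median log2 change was 0.66 against 0.41 for all tested genes. IGD1, an inhibitor of the debranching enzyme, had a log2 change of 1.84, PIG2, a putative targeting subunit of Glc7, 1.44, the kinase gene PSK1 1.06, the Glc7 activator GLC8 0.91, the Glc7 subunit REG1 0.84 and the Pho85 cyclin PCL7 0.82 (limma, adjusted p between 7.89e-04 for REG1 and 0.0469 for IGD1). With median centring 2 remained called, PSK1 and REG1, and without ribosomal protein genes in the scaling PSK1 and PIG2 did. GLC7, the phosphatase itself, had 0.08, SNF1 and SNF4, subunits of the glucose-sensing kinase, 0.35 and 0.06, PSK2 -0.00, PCL6 0.66 and PCL10 0.63, none of which passed; the values of GLC7, SNF1 and SNF4 turned negative with median centring. PCL8, PHO85, PIG1, GIP2 and SGA1 had too few values. SGA1 was listed at 29.3 to 86.3 RPM late (n = 6) and at 6.06 and 7.53 RPM early (n = 2). GIP2 was listed at 23.0 to 71.9 RPM late (n = 6) and at 10.1 and 19.9 RPM early (n = 2). Late libraries list no value under 15.5 RPM, and these differences were not tested. PCL8 was listed in 1 late library, at 18.6 RPM, and PIG1 and PHO85 in none. Trehalose, which draws on the same UDP-glucose, had 6 of 7 genes higher with a median of 1.33; TSL1 had the highest value at 2.03, and TPS3, at 0.43, was not called and turned negative without ribosomal protein genes in the scaling. Among 4 sugar kinase genes GLK1 and HXK1 were higher, at 1.87 and 1.79, and HXK2 was lower, at -1.17 (limma, adjusted p = 2.23e-05).

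**Figure D4:**
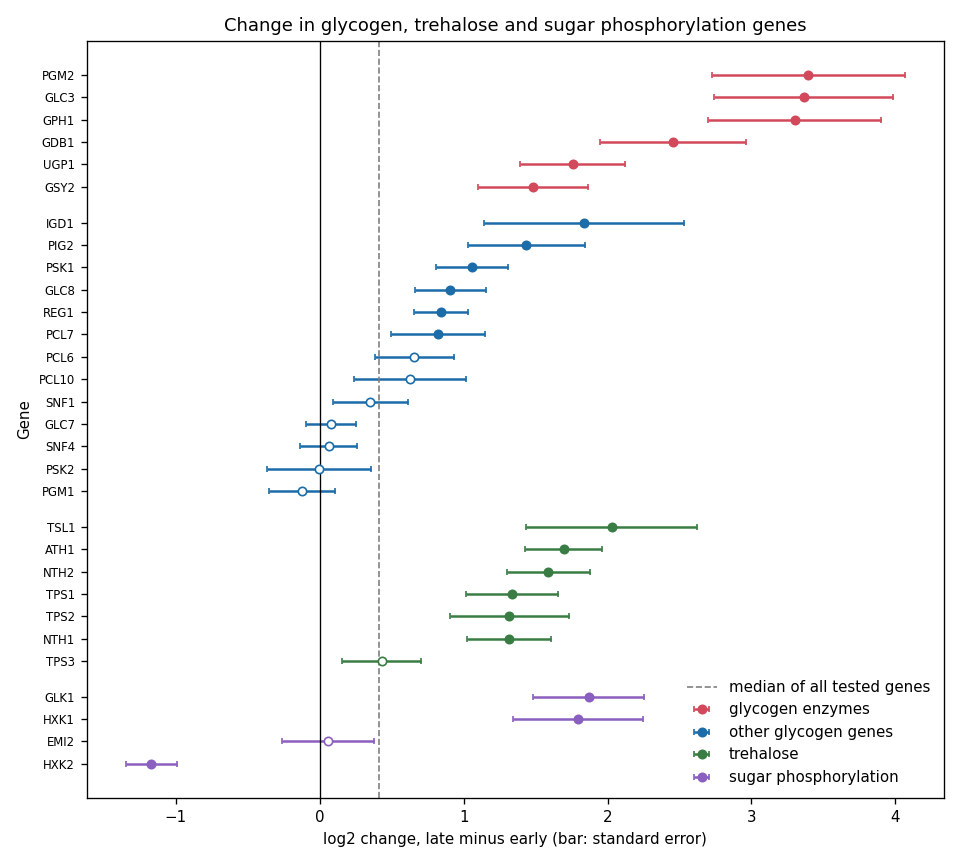
The log2 change late minus early (horizontal, bar: standard error) of each tested gene (vertical), by list; filled circles passed the limma test at adjusted p 0.05, open circles did not, and the dashed line is the median of all tested genes at 0.41. The 6 glycogen enzymes lie between 1.48 and 3.40, all right of the median, and HXK2 is the one circle below -1.

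Genes with a course like that of PGM2, UGP1 and GPH1, the 3 glycogen genes listed in all 20 libraries used, were ranked by Pearson's r with the centred mean of those 3 over these libraries. Of 2472 candidates the 5 highest were YNK1, a nucleoside diphosphate kinase gene (r = 0.984), YDR133C (0.982), GPM2 (0.976), YDR134C (0.975) and LAP4, a vacuolar aminopeptidase gene (0.975). Within the family, r with the same mean was 0.969 for GLC3 over 19 libraries, 0.959 for GDB1 over 17, 0.906 for GSY2 over 19, 0.842 for GSY1 over 11, 0.635 for GLG1 over 14 and 0.04 for GLG2 over 10. All points share the libraries, their depth and the passage of time, so the values describe likeness and nothing more.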

How the data were processed

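RNA levels were taken from 1 deposited table of 25 libraries, mapped to samples by column name. Its values are log2 RPM made by the authors: unlogged, each library totals 1000000, and its lowest value was taken as 10 reads. On that basis at least 93.4% of the values of each library used were whole reads within 0.01. Bowtie and build R64 are named in the submitters' processing notes, without versions, counter or strand setting. Of 6701 rows, 51 had neither name nor value. Positions and promoters came from RefSeq R64, which matched 5915 of 6650 names, all 10 glycogen genes among them.

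Libraries under 100000 listed reads were left out. Genes needed a value at 0 min and in 3 libraries of each window, and unlisted values stayed missing. limma 3.58.1 in R 4.3.3 fitted window means, or a spline of time (natural cubic, 4 df) beside a 0 min coefficient, with trended, robust variances, tested on simulated data. No pseudocount was added in the main analysis; log2(RPM + 1) was an alternative. Ratios were tested by exact permutation of libraries between the windows. Shares of reads have Clopper-Pearson 95% intervals. Python 3.11.15 with pandas 2.3.3, scipy 1.17.1 and matplotlib 3.10.9 was used. All 10 glycogen genes are described; of the other pathway genes, those called late minus early are named, as are the 5 most alike genes. Trehalose and sugar kinase genes are given by the highest and lowest change of each list, and all of them are named for the dip before the step. Values of uncalled pathway genes, of HXK1 and of the dip were added after their values were seen. Members, lists and windows were chosen with earlier results of these data known. The comparison of the early window with 0 min was added after seeing the data.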

Additional observations from a re-analysis of the deposited data

Results flagged for a closer look

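GSY2 at 345 min stood apart from its window. It had 6.97 log2 RPM there, whereas the other 5 late libraries that list it lay between 6.12 and 6.27. The gap was 0.821 of the whole range, above Dixon's 95% critical value for 6 samples. Of 21 gene and window groups examined this was the only 1 past its critical value, and chance gives about 1 in 20. In the same library PGM2, UGP1 and GLC3 had their lowest late values.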

How the results depend on the processing

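The log2 changes of the 6 tested genes late minus early stayed positive and past the threshold in limma under each alternative that could be fitted, with ranges of 2.83 to 3.63 for PGM2, 2.92 to 3.72 for GLC3, 2.48 to 3.55 for GPH1, 2.0 to 2.56 for GDB1, 1.32 to 1.85 for UGP1 and 1.04 to 1.69 for GSY2. Restricting to the 2475 genes listed in every library used left 3 glycogen genes to test, and 3 were called late minus early, late minus 0 min and over the time course. Of those 2475 genes, 1062 were called higher late minus early, 699 were higher late minus 0 min and 1621 were called over the time course. Leaving out 1 library at a time gave 5 to 6 calls in these comparisons, with 5 where GDB1 had too few values to be tested. Over all genes it gave 1513 to 2075, 1005 to 1266 and 1928 to 2348 calls in the same order. Without the libraries at 195 and 360 min as well, an alternative added after seeing the data, all 6 stayed called in the same comparisons. Of 4742 genes 1962, 1243 and 2327 were then called. The middle minus early count of 4 became 1 with all 25 libraries and 1 without 195 and 360 min, and ranged over 0 to 6 when leaving out 1 library. The 492 genes called there became 293 with all 25 libraries, 220 with median centring, 197 without ribosomal protein genes in the scaling, 1395 with arrayWeights and 200 without 195 and 360 min, and 115 to 1214 when leaving out 1 library; the cause was not tested. The log2 ratio of GSY2 to GSY1 turned to 0.30 with unlisted values set to the lowest, and ranged over -1.31 to -0.58 when leaving out 1 library. That of GLG2 to GLG1 ranged over -1.27 to 0.31, turning to 0.31 without 120 min and 0.19 without 285 min. That of GDB1 to GLC3 ranged over -1.51 to -0.87, losing its call at -0.87, with 2 early libraries; with unlisted values at the lowest it was -1.03. No paired analysis was possible because each time point is 1 library and replicate numbers only name time points. Depth limits the weakly expressed genes: GLG1, GLG2 and GSY1 could be tested only with a lower requirement or with unlisted values filled in, and GAC1, with no value, not at all.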

Other observations

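The 5 libraries under 100000 listed reads list few glycogen genes. At 330 min GLC3 had 336 RPM, PGM2 1143 RPM, UGP1 1244 RPM and GPH1 471 RPM. At 45 min PGM2 had 539 RPM, UGP1 1024 RPM and GPH1 916 RPM, and at 75 min 160, 554 and 148 RPM in the same order. At 90 and 210 min none of the 10 was listed.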
